A study of Rattus norvegicus with 24 samples.

Results

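Isolated covered CpGs are CpG dinucleotides that reduced representation bisulfite sequencing (RRBS) read alone, with no other well covered CpG close by. They were chosen by coverage and position alone: an autosomal C in a CpG with at least 10 reads in all 12 methylation libraries, and no other such C within 100 bases on either strand, apart from the opposite-strand C of the same CpG, 1 base away. The rule found 34217 C's at 33922 CpGs, of 396151 autosomal C's with the same coverage and 404069 on all chromosomes. The other 361934 autosomal C's are called other covered CpGs here.

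The study compared kidneys of Sprague Dawley (CD) rats, an outbred stock used as a model of normal pregnancy, with those of Brown Norway (BN) rats, an inbred strain whose pregnancies show preeclampsia-like features. The rats were females, labelled as 2 months old, and were either non-pregnant (NP) or at day 18 of pregnancy (P18). The 4 groups, CD-NP, CD-P18, BN-NP and BN-P18, held 3 rats each, with 1 RRBS library per rat from a kidney cross-section of cortex and medulla. A section holds many cell types, so a level is a mean over them, and a change in the mix of cells and a change within cells cannot be told apart. The kidney label could not be checked against marker genes, since the gene table was not used here.

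In mammals a CpG can carry a methyl group on the C of each strand. Clusters of CpGs at gene starts, called CpG islands, are mostly unmethylated, while CpGs that lie alone in the genome are mostly methylated. Bisulfite turns unmethylated C into a base read as T, so the methylation level is the percentage of reads that still show C. A rat that carries T instead of C at the position is also read as unmethylated there, and the reads alone do not separate the cases. The reads were aligned to Rnor6.0, an assembly of the BN rat. RRBS cuts DNA at CCGG, so a CpG without a covered neighbour need not lack neighbours in the genome. Positions are given on Rnor6.0, and their place in genes was not analysed here.

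Isolated CpGs were mostly methylated. Their mean level was 73.8% ± 0.168 for CD-NP and 73.4% ± 0.321 for CD-P18 (SD, n = 3 rats each), and it was 73.4% ± 0.0700 for BN-NP and 73.4% ± 0.133 for BN-P18. Each library's mean lay between 73.0% and 74.0%, and that of the other covered CpGs between 41.5% and 42.1%. The isolated CpGs were higher in 12 of 12 rats, by 31.6 percentage points on average (exact permutation test over rats, two-sided, p = 0.000488, the smallest this design allows). The gap ran from 31.3 to 32.0 points across libraries. Both sets are fixed positions read in the same rats, so this p reflects only how alike the rats were. It does not measure how isolation relates to level. Median coverage of isolated CpGs was 15 to 32 reads per library, against 16 to 30 reads at the other covered CpGs.

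The distributions differed most at the low end. Averaged over the 12 rats, 5.03% of isolated CpGs had a level under 10%, against 44.1% of the other covered CpGs. At the high end, 34.3% of isolated CpGs and 20.4% of the others reached at least 90%. In all 12 rats, 24909 isolated CpGs (72.8%) stayed at 50% or more, and 1021 (2.98%) stayed under 10%, against 39.2% and 38.3% of the others. A level of 30 to 70% in every rat was found at 1166 isolated CpGs (3.41%). Only 129 isolated CpGs had no methylated read in any rat, and 1 CpG was fully methylated in every read of every rat.

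**Figure D1:**
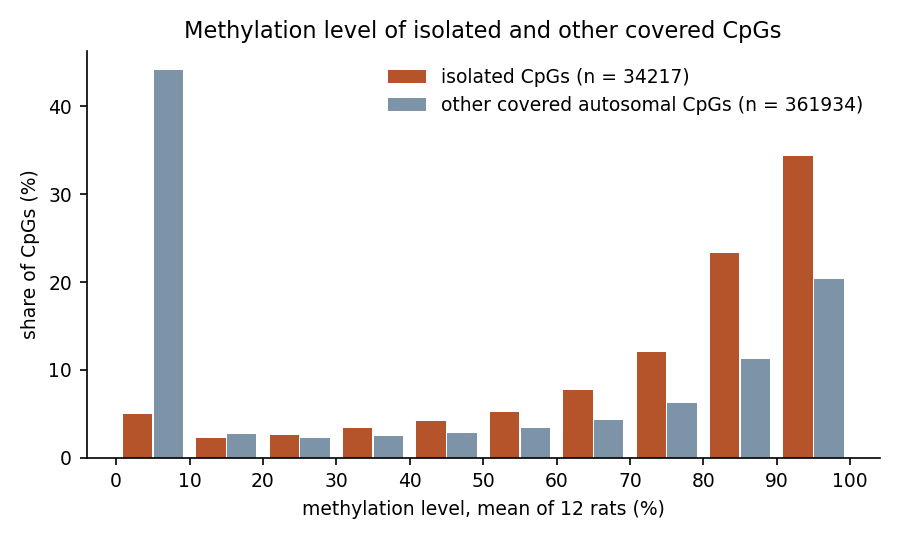
Methylation level (x axis, %, mean of 12 rats, in bins of 10 points) against the share of CpGs in each bin (y axis, %), for isolated CpGs and other covered autosomal CpGs. The lowest bin holds 5.03% of isolated and 44.1% of other CpGs, and the highest holds 34.3% and 20.4%.

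The members were not equally alone. Libraries also list CpGs with 5 to 9 reads, or covered in only some rats, and such CpGs lay within 100 bases of 17284 isolated CpGs. The 16933 isolated CpGs with no CpG listed nearby in any library had a mean level of 77.0%. The level was 74.4% with 1 listed neighbour (9232 CpGs), 70.9% with 2 (4018 CpGs), 63.2% with 4 (932 CpGs) and 18.5% with 8 or more (375 CpGs). Between libraries these means varied by little, from 17.9% to 19.2% in the last class. Of the 1021 isolated CpGs under 10% in every rat, 55.6% had 3 or more listed neighbours, and of the 2039 CpGs over 90% in every rat 9.47% did. No neighbour was listed for 18.6% of the former and 53.8% of the latter.

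The distance to the nearest covered CpG gave a pattern with a dip. Mean level was 72.4% where it lay over 100 and up to 200 bases away (12692 CpGs), 60.9% up to 500 bases (1754 CpGs), 64.2% up to 1000 bases (1715 CpGs), 74.1% up to 5000 bases (7024 CpGs) and 77.8% beyond that (11032 CpGs). The class with the lowest mean was not the one closest to another covered CpG. At the edge of the rule, CpGs with the nearest covered CpG over 100 and up to 110 bases away had a mean level of 72.1%, and those just outside, at 91 to 100 bases, 70.3%. Among other covered CpGs the mean was 27.4% where the nearest lay within 10 bases. By chromosome the isolated CpGs ranged from a mean of 69.9% on chromosome 10 to 76.9% on chromosome 11.

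**Figure D2:**
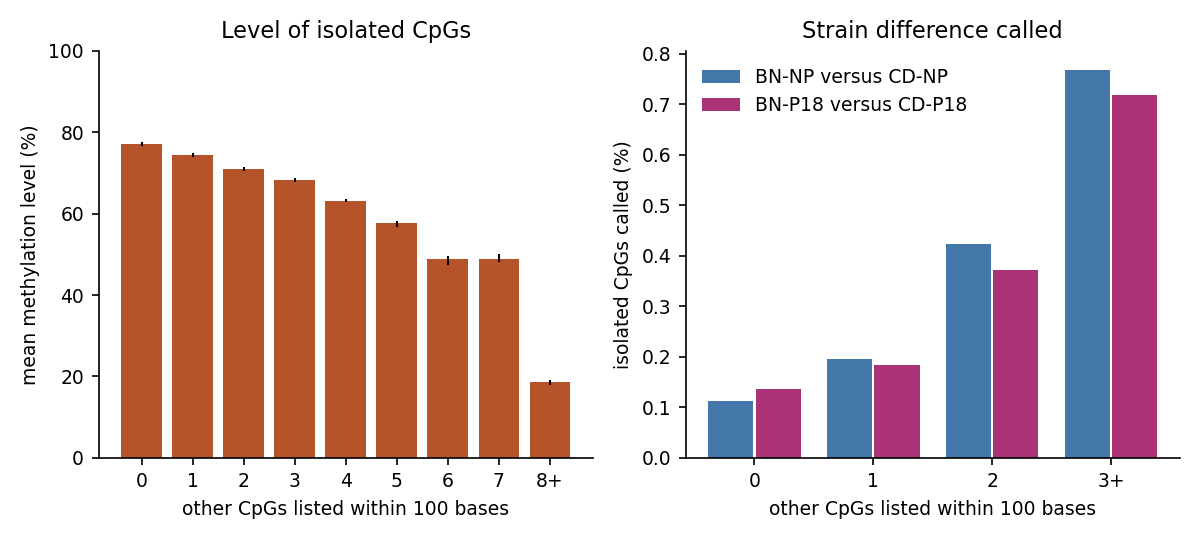
Left, mean methylation level of isolated CpGs (y axis, %, over 12 rats, with the range of the 12 library means as bars) by the number of other CpGs listed within 100 bases in any library (x axis), falling from 77.0% to 18.5%. Right, share of isolated CpGs called different between strains (y axis, %) with 0, 1, 2 and 3 or more such CpGs (x axis), in NP and P18 rats, from 0.112% to 0.768% in NP rats.

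Both strands met the coverage rule at 295 isolated CpGs. Their strand levels over all rats differed by a median of 1.97 points, with a median 95% counting half-width of 5.51 points, and 30 of the 295 differed by more than their own counting interval. The difference passed 10 points at 4 of them and reached 21.5 points at most. Across CpGs the strands' levels had a Pearson correlation of 0.990, given as a description since both strands come from the same libraries. Forward-strand and reverse-strand members had mean levels of 73.7% and 73.2%.

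The mean level of isolated CpGs did not separate the strains or the stages. BN minus CD was -0.206 points averaged over stages (exact permutation test within stages, two-sided, p = 0.145). P18 minus NP was -0.201 points averaged over strains (exact permutation test within strains, two-sided, p = 0.17). The 3 CD-NP rats were among the 4 highest, with CD-P18 replicate 3, and BN-NP minus CD-NP was -0.439 points, with p = 0.1 by exact permutation, the smallest that 3 against 3 rats allow. In pregnant rats it was 0.0270 points. The strain difference passed the threshold without CD-P18 replicate 2, at -0.294 points, and with reads pooled over CpGs it was 0.0337 points, of opposite sign.

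Rats of a group differed at isolated CpGs little more than read counting alone would give. At isolated CpGs with a group level of 10 to 90%, the variance between the 3 rats was 1.09 times the binomial variance in CD-NP and 1.09 times in CD-P18, and 1.04 and 1.05 times in BN-NP and BN-P18. At the other covered CpGs these ratios were 1.20, 1.24, 1.05 and 1.05. The CD ratios were thus lower at isolated CpGs, and the BN ratios about equal. The median SD between rats was 8.12 points in CD-NP, at a median coverage of 20.3 reads, and 6.45 points in BN-NP, at 30.7 reads, so the raw SDs move with depth. These ratios were not tested.

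CD rats stood apart from their own strain at more isolated CpGs than BN rats, with overlapping counts. An isolated CpG more than 50 points from the median of the other 5 rats of the strain was found 2 to 12 times per CD rat and 0 to 3 times per BN rat. For other covered CpGs it was 205 to 243 times per CD rat and 2 to 18 times per BN rat. As a share of CpGs this was 0.00585 to 0.0351% of isolated CpGs and 0.0566 to 0.0671% of the others in CD rats. The mean absolute difference between a pair of rats was 7.84 points within groups, 7.88 points between stages of a strain and 8.15 points between strains over isolated CpGs.

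Pregnancy was next compared within each strain. A differentially methylated CpG (DMC) had an adjusted p under 0.05 in a logistic model of its C and T reads, with limma moderating the dispersion and p-values adjusted over all 404069 CpGs. Its pooled level also had to differ by over 10 points. In CD rats 11 isolated CpGs (0.0321%) were called, 7 higher and 4 lower at P18, where the background over all CpGs tested was 0.0483% in either direction, 0.0245% higher and 0.0238% lower. The 3 CD-NP and 3 CD-P18 rats did not overlap at 10 of the 11 (90.9%), at 64.5% of the other covered CpGs called and at 6.30% of all CpGs tested. In BN rats 0 isolated CpGs were called by the same limma-moderated model, where the background was 0.000247%. Without overdispersion 0 isolated CpGs and 10 of all 404069 CpGs were called in BN rats. At an unadjusted p under 0.05 there were 1631 isolated CpGs in BN rats (4.77%) and 1447 in CD rats (4.23%). The number called in CD rats was 0 with each CpG's own dispersion, as it was over all 404069 CpGs tested. There 188 of the 34217 isolated CpGs had an unadjusted p under 0.05. That setting did not call a strain difference of 0% against 100% either, so its count of 0 does not show absence. Without overdispersion 26 isolated CpGs were called in CD rats, and 724 of all 404069 CpGs tested.

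At the CpGs called in CD rats, levels ran widely among CD rats while all 6 BN rats stayed high. Over the 11 CpGs the BN values lay between 60.0% and 100%, and at no CpG spanned more than 27.8 points. The 6 CD values spanned 30 to 100 points. These CpGs were chosen by the difference between those same CD rats, so a wide CD range follows from the choice. It is therefore no result about the strains. NP and P18 rats are different animals, so differences between single CD rats and an effect of pregnancy cannot be told apart. Of the 11, 10 had another listed CpG within 100 bases, and all 11 were also called between strains at NP or P18, comparisons that share the CD libraries.

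The smallest p was at chr4:43915423, forward strand, 57167 bases from the nearest covered CpG. It read 0%, 0% and 0% in the CD-NP rats and 92.3%, 54.8% and 46.9% in the CD-P18 rats. The BN-NP rats had 90.9%, 90.5% and 97.2%, and the BN-P18 rats 96.7%, 93.3% and 97.7%. The CD groups did not overlap, and the difference between them was 65.5 points (limma-moderated logistic model, adjusted p = 4.45e-05). The CD-NP zero rests on 41 reads, which allow a level of up to 7.32% by counting error alone. The nearest listed CpG with enough reads, 37 bases away, had 83.3% in CD-NP and 83.6% in CD-P18.

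The next moved the other way. At chr15:42672134, reverse strand, CD-NP rats had 61.9%, 37.5% and 69.2%, and CD-P18 rats 0%, 0% and 0%, the latter from 53 reads with an upper limit of 5.66%. BN-NP rats had 88.9%, 89.5% and 93.8%, and BN-P18 rats 87.0%, 96.9% and 88.4%. Pregnant CD rats were lower by 56.0 points (adjusted p = 5.87e-05, limma-moderated model), with no overlap. In CD-NP rats the opposite strand of this CpG read 97.4% over 39 reads, and a CpG 39 bases away had 97.5% in CD-NP and 98.1% in CD-P18.

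At chr10:42849319, reverse strand, CD-NP rats again had 0%, 0% and 0% (51 reads, upper limit 5.88%). CD-P18 rats had 75%, 25.8% and 48.0%, and the 6 BN rats lay between 76.2% and 87.5%. At chr4:87729272, reverse strand, CD-NP rats had 0%, 0% and 32.0% and CD-P18 rats 88.2%, 85.0% and 39.3%. Its opposite strand moved in the same way, from 8.11% to 71.4%, while a CpG 24 bases away had 89.2% and 84.5%. The 6 BN rats had 83.3% to 93.1% there. In these CpGs the CD rats fell near 0, near the BN level or between.

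The other named CpGs differed from a partly methylated CD-NP level. At chr10:109002236, forward strand, CD-NP rats had 55.0%, 44.4% and 41.7%, and CD-P18 rats 91.7%, 100% and 87.2%. At chr1:218001178, forward strand, CD-NP rats had 40%, 0% and 63.6%, and CD-P18 rats 96.8%, 75% and 86.2%. Both CpGs were at 72.2% or more in every BN rat. The differences were 44.4 and 57.9 points (adjusted p = 0.00269 and 0.00337, limma-moderated model). Without CD-NP replicate 2 neither passed, with an adjusted p of 0.0576 and 0.618, and the second also did not pass without CD-P18 replicate 1 (0.0507).

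**Figure D3:**
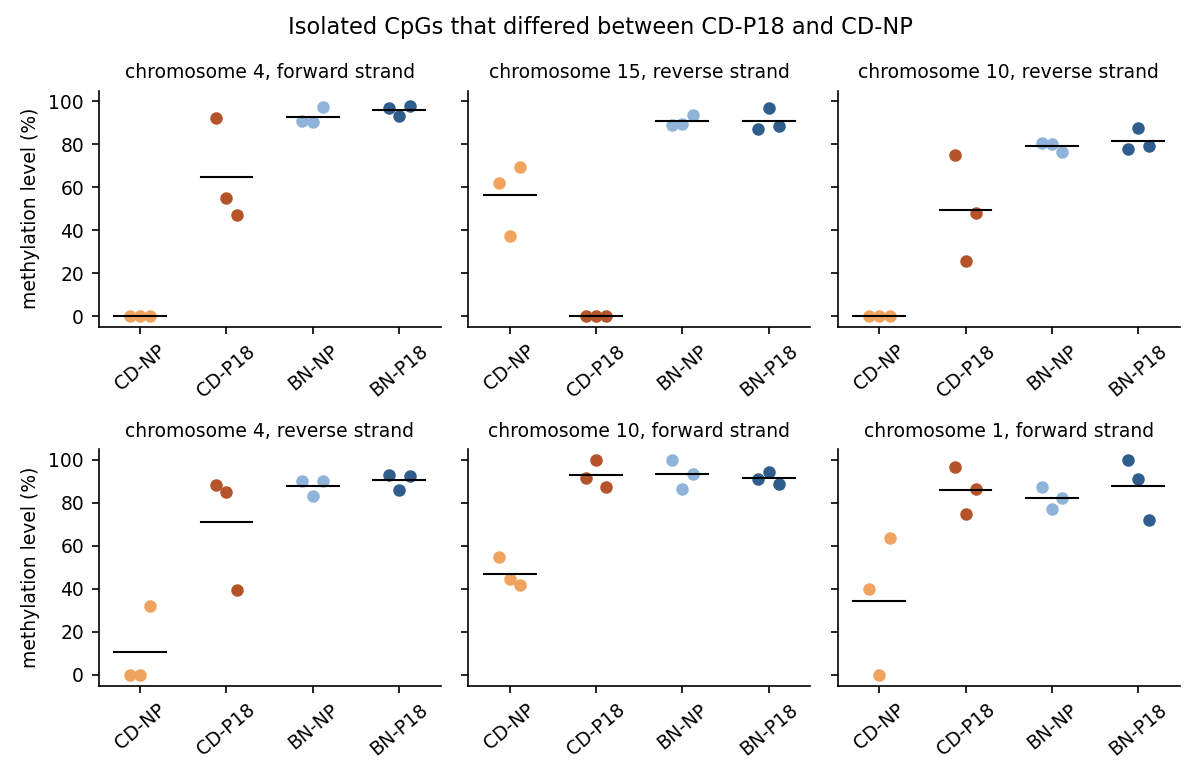
Methylation level (y axis, %) of the 6 isolated CpGs with the smallest p for CD-P18 against CD-NP, in each of 12 rats (points) by group (x axis), with group means as lines. CD rats spread from 0% to 100% and every BN rat lies at 72.2% or above. The CpGs were chosen by the difference between the CD groups.

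CpGs near the CD pregnancy calls did not follow them. The nearest other CpG with at least 20 reads in each group, from at least 2 libraries, was found for 10 of the 11. Its difference stayed within 10 points at 10 of 10. Such neighbours can rest on fewer rats than the called CpG. The opposite strand of the same CpG was readable at 3 of the 11 and moved in the same direction, by over 10 points, at 3 of 3.

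The strains were then compared at each stage. In NP rats 85 isolated CpGs differed (0.248% of members), 54 higher and 31 lower in BN, where the background was 0.592% in either direction, 0.467% higher and 0.125% lower. In P18 rats 84 differed (0.245%), 58 higher and 26 lower in BN, where the background was 0.555%, 0.456% and 0.0995%. The strains' rats did not overlap at 83 of the 85 and 79 of the 84 CpGs (97.6% and 94.0%), against 87.0% and 90.5% of the other covered CpGs called. Over all CpGs tested they did not overlap at 7.66% at either stage. Leaving out BN-NP replicate 3 gave 54 calls at NP, and leaving out BN-P18 replicate 1, 2 or 3 gave 41, 42 or 39 at P18. Without moderation of the dispersion no isolated CpG was called (0 at NP and 0 at P18). Even chr12:6781349, at 0% in all CD-NP and 100% in all BN-NP rats, had an adjusted p of 0.579 in that model. Of all 34217 isolated CpGs, 380 at NP and 356 at P18 had an unadjusted p under 0.05 without moderation, both below a share of 0.05. With moderation there were 2090 and 2071. As shares of members, 0.158% and 0.170% were higher in BN and 0.0906% and 0.0760% lower, so members fell short of the background mainly among CpGs higher in BN. The difference over all isolated CpGs had a median of -0.387 points at NP and 0 at P18.

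The lower share also appeared at matched methylation levels. Among CpGs with a mean level of 10 to 50%, 0.710% of isolated and 2.82% of other covered CpGs were called in NP rats, and 0.663% and 2.72% in P18 rats. From 50 to 80% the shares were 0.515% and 1.93% in NP rats. At 80% or more they were 0.0558% and 0.155%. The shares are a description, since CpGs of the same rats are not independent. Coverage also differed, with medians of 26.8 reads at isolated and 25.4 at other covered CpGs from 10 to 50%. From 50 to 80% the medians were 26.8 and 25.3 reads, and at 80% or more 27.2 and 24.9 reads. Among isolated CpGs the share rose with the number of listed neighbours, from 0.112% with 0 to 0.768% with 3 or more in NP rats, and from 0.136% to 0.719% in P18 rats. Within the last class the NP shares rest on few calls and did not rise steadily. They were 0.966% at 4 neighbours (9 of 932 CpGs), 1.23% at 6 (3 of 243) and 0.533% at 8 or more (2 of 375).

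The P18 rats gave a separate reading of the CpGs called in NP rats, since the comparisons share no library. Of the 85 called at NP, 79 differed in the same direction at P18 and 67 of these had an unadjusted p under 0.05. Their median difference was 38.6 points at NP and 25.9 points in the same direction at P18, and 16 were within 10 points at P18. In the reverse direction, 81 of the 84 called at P18 differed the same way at NP, with medians of 37.7 and 27.6 points. In all, 38 CpGs were called at both stages, 28 higher and 10 lower in BN, and all 38 had the same direction. They are 44.7% of the NP calls and 45.2% of the P18 calls. The same counts were not made for other covered CpGs, so they show nothing particular to isolated CpGs.

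**Figure D4:**
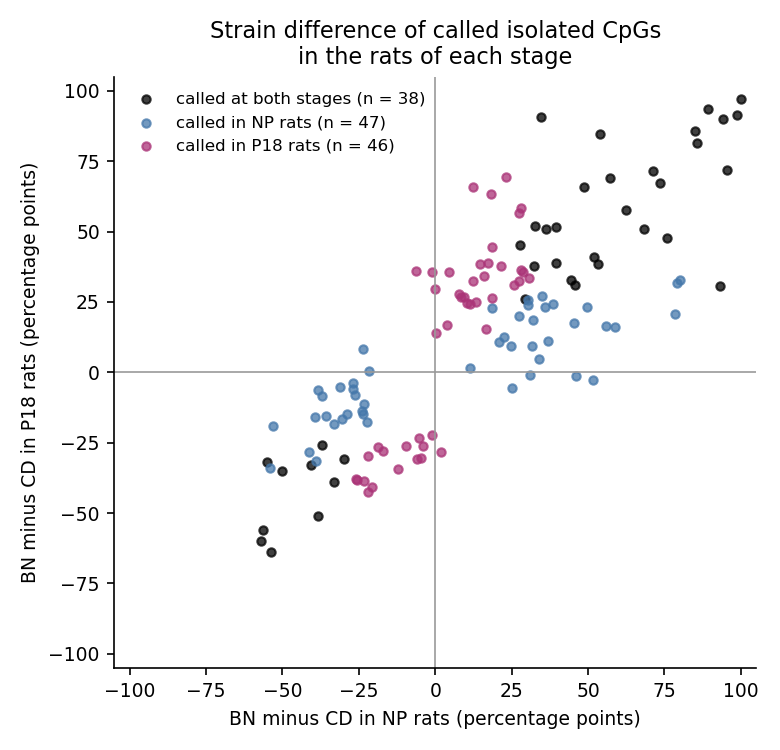
BN minus CD difference in percentage points in NP rats (x axis) against P18 rats (y axis) for the 131 isolated CpGs called at either stage, coloured by the stage of the call. Most points lie in the same quadrant for both stages, with 38 called at both.

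The strain differences with the smallest p-values were at CpGs nearly unmethylated in CD and nearly fully methylated in BN. Of the CpGs called at NP, 8 had a pooled level of at most 5% in CD and at least 80% in BN, and 8 did so at P18, while 0 showed the opposite at either stage. These are 9.41% and 9.52% of the calls among isolated CpGs, against 14.3% and 15.4% of the calls among other covered CpGs, where 1 and 2 showed the opposite. At chr12:6781349, forward strand, all 6 CD rats had 0%, from 39 reads in NP and 59 in P18 rats. BN-NP rats had 100%, 100% and 100%, and BN-P18 rats 100%, 93.3% and 100% (limma-moderated adjusted p = 8.19e-18 and 4.12e-12). Its opposite strand read 0% in CD and 98.1% in BN at NP, and 0% and 95.5% at P18. A CpG 13 bases away was methylated in both strains, at 94.4% in CD and 90.8% in BN at NP.

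At chr5:24313786, forward strand, CD rats had 0%, 0% and 0% at NP and 0%, 4.55% and 4% at P18. BN rats had 100%, 94.7% and 100% at NP and 100%, 100% and 82.4% at P18. At chr13:36048265, reverse strand, all 6 CD rats had 0% and the 6 BN rats 79.4% to 100%. The strains were far apart at both CpGs, and the CpGs 67 and 87 bases away differed by 0.130 and -10.7 points at NP.

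At chr1:119713438, forward strand, CD rats had 0%, 5.88% and 0% at NP and 0% in all 3 at P18, and BN rats 76.9% to 93.3%. Its strands differed alike between strains at NP, by 85.7 points on the called strand and 87.3 points on the opposite one. At chr15:100901465, forward strand, CD rats lay between 0% and 3.85% and BN rats between 86.7% and 95.8%. At chr11:73305967, reverse strand, CD rats lay between 0% and 10% and BN rats between 82.1% and 96.0%.

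At chr20:9431874, forward strand, 5 CD rats had 0% and CD-P18 replicate 3 had 38.5%, while BN rats had 70.6% to 100%. CD rats differed from each other there, and the strain difference was 95.5 points at NP and 71.8 points at P18. Where a CD group had 0% in all 3 rats at the CpGs named here for strain, its reads allow a level of up to 2.73 to 7.69% by counting error alone.

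CpGs lower in BN covered a wide range of levels in BN. Among CpGs called lower at NP, the median level was 82.5% in CD and 39.4% in BN, and at P18 82.0% and 38.3%. Pooled BN levels ran from 5.75% to 74.7% at NP and from 8.16% to 75.4% at P18. At chr2:88735107, forward strand, CD rats had 89.5% to 100% and BN rats 36.6%, 31.6% and 43.6% at NP and 50%, 33.3% and 16.7% at P18. At chr7:27180123, reverse strand, CD rats had 66.7% to 90% and BN rats 11.9% to 31.2%. The CpG 49 bases from it also differed, with 80% in CD and 31.6% in BN at NP. At chr11:30958841, reverse strand, CD rats had 81.8% to 100% and BN rats 42.9% to 64.7%. The strains did not overlap at any of these 3 CpGs.

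At chr11:38823414, reverse strand, the spread was within BN. BN-NP rats had 43.6%, 0% and 50% and BN-P18 rats 0%, 0% and 73.9%, against 76.9% to 88.0% in CD rats. The BN values fell near 0 in 3 rats and between 43.6% and 73.9% in the other 3. At chr10:37738491, forward strand, CD-NP rats had 68.2%, 62.5% and 73.3%, CD-P18 rats 57.7%, 56.0% and 23.8%, and BN rats 8.11% to 20%. The P18 difference there did not pass without any 1 of the P18 rats other than CD-P18 replicate 3 (adjusted p 0.0643 to 0.454, limma-moderated model).

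At chr2:193758913, forward strand, both strands differed. CD rats had 58.8% to 83.3% and BN rats 17.6% to 35.7% on the called strand. On the opposite strand, CD had 69.4% and BN 24.4% at NP. The NP call was lost without CD-NP replicate 1 or 3 or BN-NP replicate 1 or 3 (adjusted p 0.0724 to 0.421, limma-moderated model).

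The opposite strand of the same CpG split the calls that were higher in BN. It was readable, with at least 20 reads in each group from at least 2 libraries, at 15 of the 54 such CpGs at NP. At 5 of these the opposite strand was also higher in BN, by over 40 points, up to 98.1. At the other 10 it differed by less than 10 points in either direction. Among these 10, chr1:15605473 differed by 48.5 points on the called strand, where the CD-NP rats had 0%, 68.2% and 100%. Its opposite strand had 100% in CD over 31 reads and 95.4% in BN over 65 reads. Readings of the opposite strand can rest on fewer rats than those of the called strand. At P18, 4 of 10 were higher by over 40 points on the opposite strand and 5 differed by less than 10 points. For calls lower in BN, 3 of 4 at NP and 2 of 3 at P18 were lower by over 40 points on the opposite strand as well. Whether a base change in CD rats produced any of these calls, on 1 strand or on both, was not tested.

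**Figure D5:**
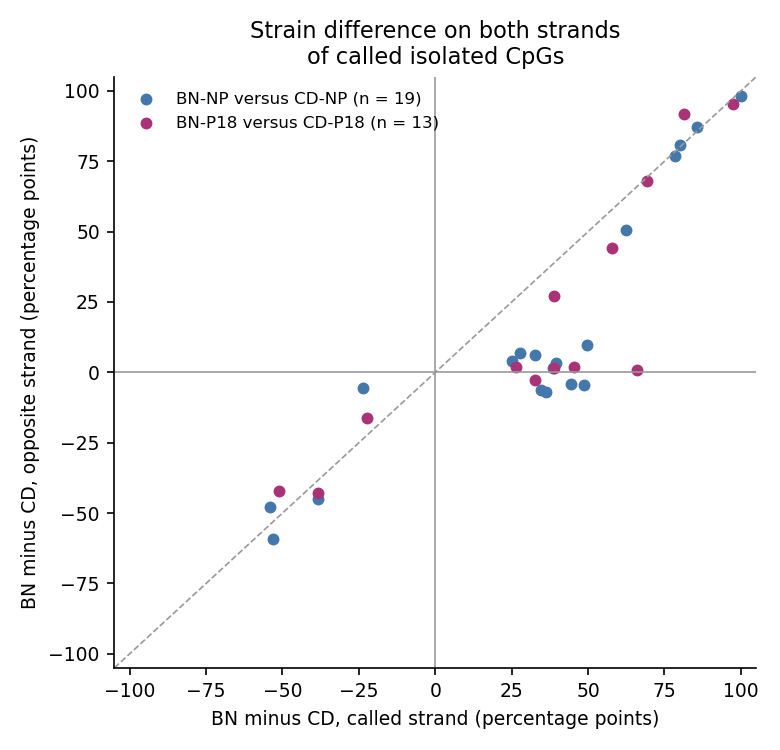
BN minus CD difference in percentage points on the called strand (x axis) and on the opposite strand of the same CpG (y axis), for strain calls with enough reads on both, 19 at NP and 13 at P18. Most points lie either along the dashed line of equal difference or, for calls higher in BN, close to 0 on the opposite strand.

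Other CpGs within 100 bases had smaller differences at the median than the calls higher in BN. The nearest readable one was found for 40 CpGs at NP and 40 at P18, with median differences of 3.13 and 1.49 points, against 50.8 and 46.4 points at the called CpGs themselves. It was higher in BN by over 10 points at 10 of these at NP and 9 at P18, and by over 40 points at 3 and 2, up to 68.2 and 70.7 points. For calls lower in BN the neighbours' medians were -7.48 points at 14 CpGs and -18.1 points at 11 CpGs, against -36.4 and -30.4 points. The P18 minus NP difference itself differed between strains at 1 isolated CpG (0.00292%), higher in BN. The background was 0.0052% in either direction, 0.00346% higher and 0.00173% lower. The CpG was chr15:42672134, where P18 minus NP was -56.0 points in CD and 0.250 points in BN rats (adjusted p = 0.0280 for the interaction, limma-moderated model). That call was lost when any 1 of 6 rats was left out: CD-P18 replicate 3, any BN-NP rat, or BN-P18 replicate 1 or 2 (adjusted p 0.0583 to 0.211).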

How the data were processed

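RRBS libraries of 12 rats were analysed. Per the study's methods, MspI-cut DNA was bisulfite converted and read as single reads, which the authors trimmed (Trim Galore 0.4.5), de-duplicated by random tags, aligned to Rnor6.0 with Bismark and tabulated in methylKit format. The deposited lists give, per C of a CpG, its coverage (a read count) and its percent of C and of T reads. They hold C's with 5 or more reads, 1605494 to 2230970 per library, with summed coverage of 21669162 to 44738436. The 12 RNA libraries were not used. Methylated reads were recovered as percent times coverage.

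Each CpG with 10 or more reads in all 12 libraries was fitted with a logistic model and F test in Python 3.11.15, with the Pearson dispersion moderated by squeezeVar in limma 3.58.1 (R 4.3.3; trend over coverage, prior from levels of 10 to 90%, at least 1), and Benjamini-Hochberg adjustment over all 404069 CpGs. The model was tested on simulated data. Mean levels were compared by exact permutation over rats. Replicates are separate rats. Counting limits (3 reads for a count of 0) cover counting error only.

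Members and lists were chosen with earlier results of these data known. CpGs named are the 6 with the smallest p of each comparison (all, where fewer) and, of those called between strains at both stages, the 6 highest and 6 lowest differences; chr1:15605473 was chosen after its values were seen. Alternatives were coverage of 20, isolation by 50 or 200 bases, other dispersions, over 25 points, summed strands, the top 0.1% of coverage left out, pooled reads, a replicate block and each rat left out.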

Additional observations from a re-analysis of the deposited data

Results flagged for a closer look

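At chr15:42672134, reverse strand, the P18 minus NP difference differed between the strains by a test of the difference itself. NP and P18 rats are different animals, so differences between single CD rats and an effect of pregnancy cannot be told apart. Pregnant minus non-pregnant was -56.0 points in CD and 0.250 points in BN rats, a difference of 56.3 points (limma-moderated logistic model, adjusted p = 0.0280). All 3 CD-P18 rats had 0% and all 3 CD-NP rats 37.5% or more. In CD-NP rats the opposite strand of this CpG read 97.4% over 39 reads, and the CpG 39 bases away 97.5%. The call was lost when any 1 of 6 rats was left out (adjusted p 0.0583 to 0.211, limma-moderated model). No other isolated CpG passed this test, and 1549 (4.53% of isolated CpGs) had an unadjusted p under 0.05.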

How the results depend on the processing

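Mean levels kept their direction and their side of the threshold under all alternatives but 2: with pooled reads BN minus CD was 0.0337 points, and without CD-P18 replicate 2 it passed the threshold. Leaving out 1 rat gave -0.294 to -0.137 points for BN minus CD, -0.270 to -0.113 points for P18 minus NP, and 31.56 to 31.62 points for isolated minus other.

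The counts of called CpGs, in the order CD pregnancy, strain at NP, strain at P18 and interaction (11, 85, 84 and 1), moved as follows. Isolation by 50 bases, which takes in more CpGs (65441), gave 26, 254, 241 and 2. Coverage of 20, which 2929 members reach, gave 0, 10, 6 and 0. Over all 25285 CpGs with that coverage, 1 was called for CD pregnancy and 347 for strain at NP. No overdispersion gave 26, 140, 154 and 7. Over all 404069 CpGs it called 724 for CD pregnancy and 3037 for strain at NP. Each CpG's own dispersion gave 0, 0, 0 and 0, with 188, 380, 356 and 702 of the 34217 members at an unadjusted p under 0.05. In the moderated model these numbers of members were 1447, 2090, 2071 and 1549. Own dispersion also called 0 of all CpGs tested for CD pregnancy and for strain at NP. Even chr12:6781349, at 0% in all CD-NP and 100% in all BN-NP rats, had an adjusted p of 0.579 in that model. A count of 0 under own dispersion therefore does not show that differences are absent. BN pregnancy stayed at 0 under each of these settings, and was 0 to 1 when 1 rat was left out (1 without BN-P18 replicate 3).

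Leaving out 1 rat gave 9 to 13 for CD pregnancy, 54 to 91 for strain at NP (54 without BN-NP replicate 3), 39 to 81 for strain at P18 (41, 42 and 39 without BN-P18 replicate 1, 2 and 3) and 0 to 3 for the interaction (3 without CD-P18 replicate 2; 2 without CD-NP replicate 3 or CD-P18 replicate 1 or 3; 0 without any BN-NP rat or BN-P18 replicate 1 or 2).

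Same-numbered rats of different groups did not deviate together (correlations of -0.031 to 0.035, none over 0.1). Since rats of a group differed little more than read counting alone would give, this check could miss something that same-numbered samples share. The replicate block gave 35 at NP and 28 at P18 between strains, all among the calls without it, 12 for CD pregnancy, 0 for BN pregnancy and 1 for the interaction. Over all 404069 CpGs the block called 1292 for strain at NP and 222 for CD pregnancy. No named CpG changed direction under any alternative.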
